A study of Mus musculus with 4 samples.

Results

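Inflammasomes are protein platforms that convert the detection of microbes or cell damage into inflammation. A sensor protein recruits the adaptor ASC, ASC recruits caspase-1, and caspase-1 cleaves the precursors of interleukin-1 beta and interleukin-18 together with gasdermin D, whose released fragment forms pores in the plasma membrane and kills the cell by pyroptosis. Neutrophils and monocytes, the phagocytes of blood, are well known for using this machinery.

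The genes described here are 9 mouse genes of this machinery, selected by symbol. No value served as a criterion, but earlier results of these data were known when they were chosen. They are the sensors Nlrp3, Nlrc4, Nlrp1b and Aim2, the adaptor Pycard (which encodes ASC), the inflammatory caspases Casp1 and Casp4, the pore-forming effector Gsdmd, and Nlrp12, an NLR gene best known for restraining inflammatory signaling. All 9 had values in the 4 libraries, among 17823 genes with values. The libraries came from the blood of C57BL/6 mice labelled adult and described in the study's methods as 12 months old. Naringenin (Nar), a flavonoid of Ribes meyeri, was injected into the tail vein at 20 mg/kg, and treatment lasted 30 days (Nar 1 and Nar 3). Control mice received PBS alone over the same time (Ctrl 1 and Ctrl 3). The labels do not say whether a library is 1 mouse or a pool, so p-values measure the spread between these libraries. Values are FPKM, fragments scaled to transcript length and library size, as deposited by the authors.

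Haemoglobin transcripts dominated these blood libraries. Haemoglobin genes took 92.6% to 95.1% of the summed FPKM in controls and 95.7% to 96.4% with Nar, and among 5339 genes averaging 0.5 FPKM or more, the genes tested, the median log2 fold change was -1.07, so the typical gene was lower with Nar by 2.1-fold. Differences are therefore given on the deposited scale and after median-of-ratios scaling, a rescaling that brings this median to 0. Low values lay at steps that placed 1 fragment at about 0.0395 to 0.041 FPKM on a transcript of 1 kb, with overlapping groups, so the libraries were of similar estimated depth. Of the blood cell markers with values, no gene was at 0 in all 4 libraries. Neutrophil markers had a summed FPKM of 1746 and 1442 in controls against 105.7 and 165 with Nar, and monocyte markers had 389 and 468.3 against 161.3 and 104.6. In limma 12 of 12 neutrophil, 6 of 10 monocyte, 6 of 8 leukocyte common and 1 of 6 NK cell markers were lower, and 0 of 7 B cell, 0 of 7 T cell, 0 of 8 platelet and 0 of 9 erythroid markers passed the test, while 2 of 10 haemoglobin genes were higher, beside 39.6% of all tested genes called lower and 0.187% called higher. After median-of-ratios scaling 6 of 12 neutrophil, 1 of 10 monocyte, 0 of 8 leukocyte common and 0 of 6 NK cell markers were lower, and 4 of 10 haemoglobin genes were higher, beside 0.599% and 0.187% of all tested genes. In whole blood, fewer cells of a type and less RNA per cell cannot be told apart.

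On the deposited scale, the 9 genes together summed to 15.5 FPKM (Ctrl 1) and 13.5 (Ctrl 3) against 2.7 (Nar 1) and 2.71 (Nar 3). The groups did not overlap, and the mean was 5.36-fold lower with Nar, at 2.7 ± 0.00707 (SD, n = 2) against 14.5 ± 1.43 (SD, n = 2). The two-sided exact permutation p was 0.33, which 2 libraries against 2 cannot go below. In controls Casp4 had the highest mean level, at 5.24 FPKM, and Nlrp1b the lowest, at 0.13 FPKM.

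**Figure D1:**
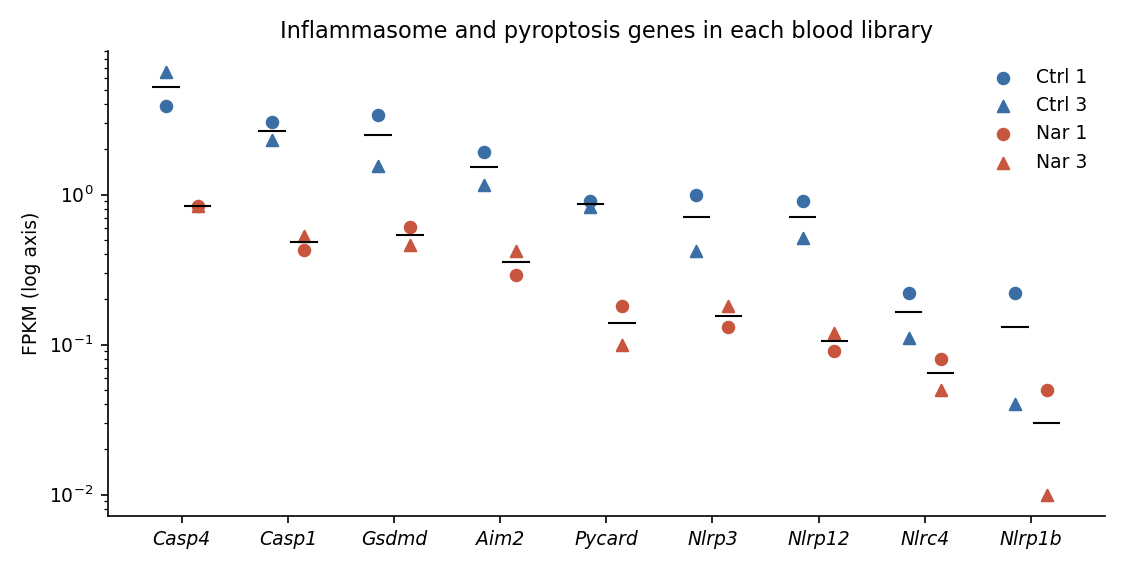
FPKM (log axis) of each of the 9 genes in each library, with Ctrl in blue, Nar in red, replicate 1 as circles, replicate 3 as triangles and the group mean as a bar. Both Nar libraries lie below both Ctrl libraries for 8 genes, and the groups overlap for Nlrp1b alone.

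Both Nar libraries lay below both controls for 8 of the 9 genes, with Nlrp1b as the exception. That pattern was common in these libraries, at 78.3% of the tested genes, 40.4% of the genes that had a value above 0 but a mean under 0.5 FPKM, and 52.7% of both together, whereas both Nar libraries lay above both controls for 1.27% of the tested genes. Pycard, Casp1, Casp4, Gsdmd and Aim2 reached the mean FPKM of 0.5 needed for testing, Pycard exactly at it. Aim2, Pycard and Casp1 reached it only through the controls, since their Nar means were 0.355, 0.14 and 0.48 FPKM, so the count of calls among the 5 is a description and lends no support. All 5 were lower in limma at a Benjamini-Hochberg adjusted p-value under 0.05, beside 39.6% of all tested genes that were called lower and 0.187% that were called higher. After median-of-ratios scaling 0 of the 5 were called, beside 0.599% of all tested genes called lower, and 2 of them, Casp1 and Casp4, had an unadjusted p-value under 0.05, as did 797 of the 5339 tested genes. Over the 9 genes the median log2 fold change was -1.93 on the deposited scale and -0.87 after scaling, against -1.07 and 0 for all tested genes. The 9 include genes under the minimum for testing, and over the 5 tested alone the median on the deposited scale was -2.02. Leaving out any library leaves a group of 1, whose spread is taken from the other group, and most calls were then lost although the log2 fold changes of the 5 genes still ran from -2.83 to -1.40. Without Ctrl 1 or without Ctrl 3, 0 of the 5 genes and 0 genes in the whole table were called, with the 5 genes at limma adjusted p-values of 0.0826 and 0.0871. Without Nar 1 or without Nar 3 the call of Casp1 alone remained, with limma adjusted p-values of 0.0498 and 0.0391. The direction of all 9 genes was lower in each of these comparisons.

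The stretches of DNA just before RefSeq starts of these genes are shown as a description. Both Nar libraries lay below both controls in 78.3% of the tested genes, so a fall shared by several genes was common. RefSeq starts were at hand for 8 of the 9 genes, with 11 windows of 250 bases upstream. The windows of Aim2 and Nlrp1b lie inside the chromosome span given below for the gene. Windows were searched on both strands for the PU.1 motif GAGGAAGT of the myeloid factor PU.1, the interferon-response motif (GAAA, any 2 bases, GAAA), the AP-1 motif TGANTCA and the NF-kappaB motif by name. Over all 32851 RefSeq windows of this length, these were found in 2.44%, 2.98%, 6.75% and 3.9%, respectively. Of the 8 genes, 5 held a match of any of the 4 motifs in at least 1 window. The shares above are per window and per motif, and the like share over all genes was not counted. The PU.1 motif stood before Aim2, Pycard and 1 of the 2 starts of Nlrp1b, the NF-kappaB motif before Casp4 and 1 of the 2 starts of Nlrp3, and the windows of Casp1, Nlrc4 and Nlrp12 held none of the 4 motifs. A match is a match of letters and not a measured binding site. The windows (GRCm38.p6, written 5′ to 3′ on the strand of the gene) are given for 4 genes with matches, and capitals mark the motif. They are chr9:5308599-5308848 (plus strand) for Casp4, chr11:59541319-59541568 (plus strand) for Nlrp3, chr1:173420354-173420603 (plus strand) for Aim2 and chr7:127993868-127994117 (minus strand) for Pycard.
Casp4: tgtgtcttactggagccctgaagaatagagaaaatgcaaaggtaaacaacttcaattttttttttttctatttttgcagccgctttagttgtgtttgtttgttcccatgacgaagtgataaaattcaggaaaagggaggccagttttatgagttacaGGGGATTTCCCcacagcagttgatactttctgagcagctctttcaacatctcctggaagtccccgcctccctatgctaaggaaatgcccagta
Nlrp3: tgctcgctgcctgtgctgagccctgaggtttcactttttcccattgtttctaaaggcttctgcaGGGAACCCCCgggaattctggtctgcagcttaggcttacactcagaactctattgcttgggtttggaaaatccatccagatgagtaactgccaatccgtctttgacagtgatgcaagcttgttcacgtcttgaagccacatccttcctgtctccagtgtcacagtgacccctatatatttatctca
Aim2: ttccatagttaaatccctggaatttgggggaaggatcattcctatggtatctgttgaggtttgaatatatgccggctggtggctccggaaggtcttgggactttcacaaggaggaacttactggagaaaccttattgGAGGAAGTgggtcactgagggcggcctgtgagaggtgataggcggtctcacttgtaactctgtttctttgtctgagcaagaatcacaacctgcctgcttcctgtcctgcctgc
Pycard: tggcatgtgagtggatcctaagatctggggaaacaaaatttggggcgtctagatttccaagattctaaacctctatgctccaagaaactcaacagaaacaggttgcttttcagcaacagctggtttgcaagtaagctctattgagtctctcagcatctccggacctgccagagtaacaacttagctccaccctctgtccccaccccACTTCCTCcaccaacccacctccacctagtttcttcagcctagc
In Casp4 the capitals join overlapping NF-kappaB matches on both strands between positions -93 and -83 from the start. The NF-kappaB match of Nlrp3 lies on the opposite strand at positions -186 to -177 from the start. The PU.1 match of Aim2 lies at -113 to -106, and that of Pycard, read on the opposite strand, at -44 to -37. These 4 genes had log2 fold changes of -2.46, -1.58, -1.82 and -2.02 in the order shown, and Nlrp1b, also with a match, had -0.72. Casp1, Nlrp12 and Nlrc4, without any of the motifs in their windows, had -2.25, -1.94 and -0.66. A link between motifs and fold changes was not tested.

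The inflammatory caspases had the highest mean levels in controls among the 9 genes, and both were lower with Nar. Casp4 (NCBI Gene 12363), the gene of mouse caspase-11, which binds cytosolic lipopolysaccharide and starts pyroptosis without a platform, lies on chromosome 9 beside Casp1, at 5308849 to 5336791 of GRCm38. It had 3.91 FPKM (Ctrl 1) and 6.57 (Ctrl 3) against 0.84 in both Nar libraries. The controls lay far above both Nar libraries, and Casp4 was the only 1 of the 9 genes with a higher value in Ctrl 3 than in Ctrl 1. The log2 fold change was -2.46 (standard error, SE, 0.408, limma adjusted p = 0.00666), and the means differed 6.24-fold. After median-of-ratios scaling it was -1.35 (adjusted p = 0.114).

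Casp1 (NCBI Gene 12362), the protease that matures interleukin-1 beta, lies at 5298517 to 5307281 of the same chromosome. It had 3.03 FPKM (Ctrl 1) and 2.3 (Ctrl 3) against 0.43 (Nar 1) and 0.53 (Nar 3). The libraries of each group stood close together, and the groups were far apart. The log2 fold change was -2.25 (SE 0.352, limma adjusted p = 0.00553), or -1.18 after scaling (adjusted p = 0.153). By the estimate of 1 fragment, and with the single annotated transcript of 1497 nt, these values correspond to about 107 and 78 fragments in controls and 15 and 18 with Nar, so each Nar value rests on few fragments.

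Gsdmd (NCBI Gene 69146, chromosome 15, 75862144 to 75867408) encodes the pore-forming protein that both caspases cleave. It had 3.4 FPKM (Ctrl 1) and 1.56 (Ctrl 3) against 0.61 (Nar 1) and 0.46 (Nar 3). The groups did not overlap, but Ctrl 1 stood 2.18-fold above Ctrl 3, the reverse of Casp4. The log2 fold change was -1.93 (SE 0.427, limma adjusted p = 0.0164), or -0.87 after scaling (adjusted p = 0.412).

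Pycard (NCBI Gene 66824, chromosome 7, 127991373 to 127993867), the adaptor through which most sensors reach caspase-1, was the steadiest between controls. It had 0.9 FPKM (Ctrl 1) and 0.82 (Ctrl 3) against 0.18 (Nar 1) and 0.1 (Nar 3). The fall between the means was 6.14-fold, with a log2 fold change of -2.02 on the log2(FPKM + 0.1) scale (SE 0.466, limma adjusted p = 0.0186). After scaling the log2 fold change was -1.15 (adjusted p = 0.341). Even on its longest annotated transcript, of 3800 nt, the values correspond to about 84 and 74 fragments in controls and 17 and 9 with Nar. The shortest is 493 nt, on which these estimates would be lower still, so each Nar value rests on few fragments.

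Among the sensors, only Aim2 was expressed highly enough for testing. Aim2 (NCBI Gene 383619, chromosome 1, 173349547 to 173466040), which detects double-stranded DNA in the cytosol, had 1.91 FPKM (Ctrl 1) and 1.15 (Ctrl 3) against 0.29 (Nar 1) and 0.42 (Nar 3). The log2 fold change was -1.82 (SE 0.393, limma adjusted p = 0.0155), or -0.80 after scaling (adjusted p = 0.488). The intervals of these 5 fold changes overlapped, running from -3.38 to -1.54 for Casp4 and from -2.71 to -0.93 for Aim2 (95%, limma), and an order among the 5 was not tested.

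Nlrp3 (NCBI Gene 216799, chromosome 11, 59541569 to 59566955), which responds to potassium efflux and many forms of cell damage, had 1 FPKM (Ctrl 1) and 0.42 (Ctrl 3) against 0.13 (Nar 1) and 0.18 (Nar 3). Its mean was under the minimum for testing. The log2 fold change was -1.58, or -0.70 after scaling, and the exact permutation test of 2 libraries against 2 gave p = 0.33. Fitted without the minimum, Nlrp3 had a limma adjusted p of 0.137, in a fit that called 0 of 16382 genes although 4978 had an unadjusted p-value under 0.05, 7 of the 9 genes among them. Nlrp12 (NCBI Gene 378425, chromosome 7, 3218643 to 3249771) was also under the minimum, with 0.91 and 0.51 FPKM in controls and 0.09 and 0.12 with Nar. Its log2 fold change of -1.94, or -1.11 after scaling, had an exact permutation p of 0.33 and, fitted without the minimum, a limma adjusted p of 0.113.

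Nlrc4 and Nlrp1b were near the limit of what these libraries resolve. Nlrc4 (NCBI Gene 268973, chromosome 17, 74426255 to 74459144), the partner of the NAIP proteins that bind bacterial flagellin and secretion-system parts, had 0.22 FPKM (Ctrl 1) and 0.11 (Ctrl 3) against 0.08 (Nar 1) and 0.05 (Nar 3). Even on its longest annotated transcript that amounts to about 26, 12, 9 and 6 fragments, and the log2 fold change of -0.66 became -0.09 after scaling. Nlrp1b (NCBI Gene 637515, chromosome 11, 71152574 to 71242514), a sensor activated by anthrax lethal factor in some mouse strains, had 0.22, 0.04, 0.05 and 0.01 FPKM in the same order. The groups overlapped (exact permutation p = 0.67), the Nar values stand for at most about 5 fragments, and similarity to its neighbour Nlrp1a leaves the assignment of its reads uncertain. A pseudocount of 0.1 shrinks the fold change of such genes, which was -1.18 for Nlrc4 and -1.63 for Nlrp1b with a pseudocount of 0.01.

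**Figure D2:**
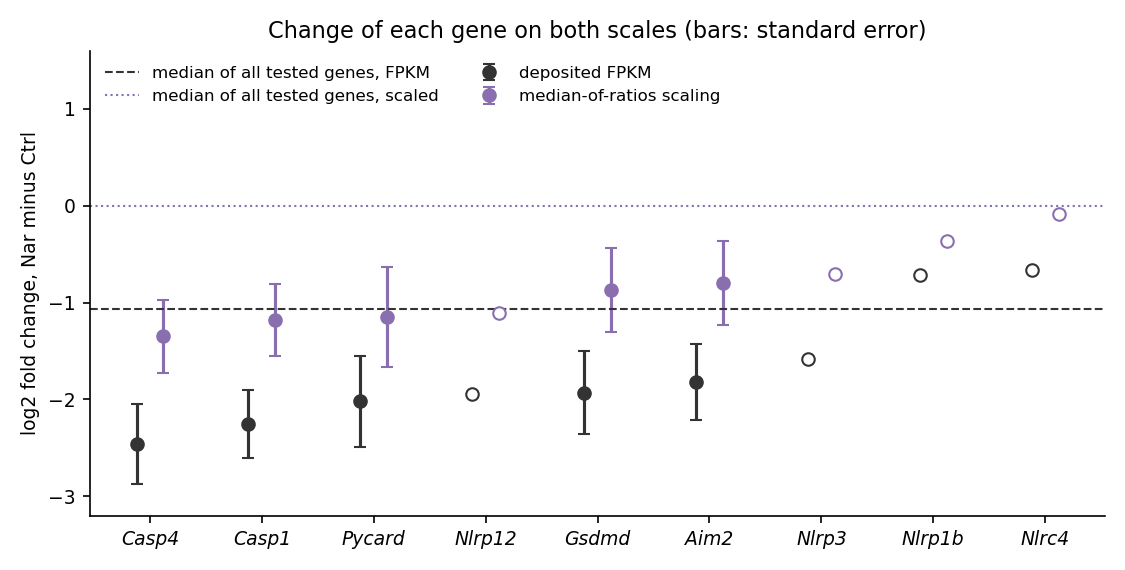
Log2 fold change (Nar minus Ctrl, on log2(value + 0.1)) of the 9 genes on the deposited FPKM scale (black) and after median-of-ratios scaling (purple). Bars are limma standard errors, open points are genes not tested, and lines mark the median of all tested genes. On the deposited scale 7 genes lie below the line at -1.07, and after scaling the 9 genes run from -1.35 (Casp4) to -0.09 (Nlrc4).

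FPKM is per length, so levels can be compared between genes within a library, and such shares do not depend on library scaling. Casp4 took 25.2% and 48.7% of the summed FPKM of the 9 genes in controls against 31.1% and 31% with Nar. Casp1 took a steady 15.9% to 19.6% in all libraries. Gsdmd took 21.9% and 11.6% in controls against 22.6% and 17% with Nar. The shares of 8 genes overlapped between the groups. For Nlrc4, the exception, the shares were 1.4% and 0.8% against 3% and 1.8%, values that rest on the few fragments given above. The difference between the control libraries was larger than that between the groups for Casp4. The marker lists differed between the controls in both directions, and 4 of 9 in that of Casp4. Platelet markers had a summed FPKM of 664.3 in Ctrl 1 and 2066 in Ctrl 3, monocyte markers 389 and 468.3, T cell markers 15.74 and 25.69, and erythroid markers other than haemoglobin 6452 and 7830. The sums of neutrophil, leukocyte common, B cell, NK cell and haemoglobin genes were higher in Ctrl 1. The part of these lists in the level of Casp4 was not tested.

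**Figure D3:**
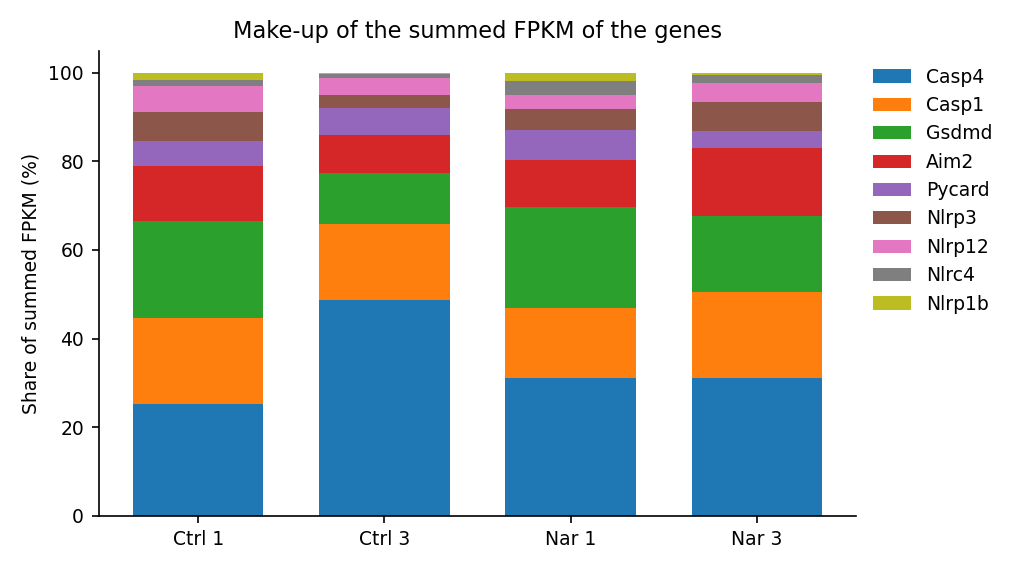
Stacked bars of the share (%) of each gene in the summed FPKM of the 9 genes, for each library. Casp4 forms 48.7% in Ctrl 3 against 25.2% to 31.1% in the other libraries, while Casp1 keeps to 15.9% to 19.6%.

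The position of these genes relative to blood cell markers depended on the cell type. Per 100 FPKM of markers common to leukocytes, the sum of the 9 genes was 5.36 and 4.79 in controls and only 2.64 and 3.33 after Nar, lower by 1.7-fold in the mean. Per 100 FPKM of B cell markers, whose sum differed little between groups, they had 39.4 and 44.9 in controls against 9.29 and 8.8 with Nar, lower by 4.66-fold. Per 100 FPKM of neutrophil markers the direction was the opposite, with 0.888 and 0.935 in controls against 2.55 and 1.64 with Nar, a mean higher by 2.3-fold. The median log2 fold change of the neutrophil markers was -3.67, against -1.93 for the 9 genes. Per 100 FPKM of monocyte markers the 9 genes had 3.98 and 2.88 in controls and 1.67 and 2.59 with Nar, so that Ctrl 3 and Nar 3 were close. The corresponding values were 98.5, 52.5, 25.8 and 33.7 for T cell markers and 69, 70.6, 26.5 and 54.9 for NK cell markers, in the order Ctrl 1, Ctrl 3, Nar 1 and Nar 3. In none of these ratios did the groups overlap. Each of the 7 quantities, the plain sum included, had an exact permutation p of 0.33 and the same value after Benjamini-Hochberg adjustment, the smallest possible. The part of changing cell proportions in the levels of the 9 genes was not tested.

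**Figure D4:**
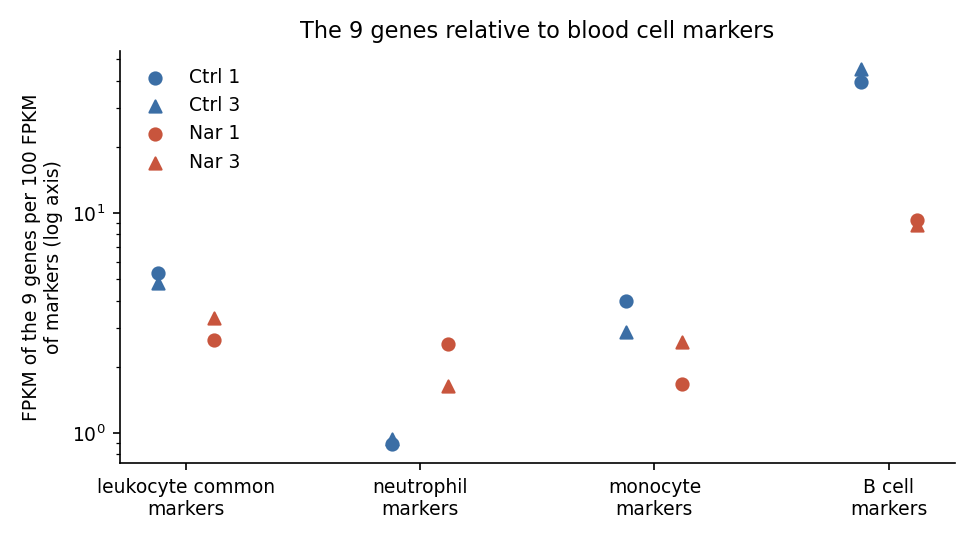
Summed FPKM of the 9 genes per 100 FPKM of summed marker genes (log axis) for each library, by marker list. Relative to leukocyte common, monocyte and B cell markers the Nar libraries lie below the controls, and relative to neutrophil markers they lie above them, at 2.55 and 1.64 against 0.888 and 0.935.

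Of 51 further genes of the pathway listed, 48 had values (Irgb10 under the symbol Gm12250) and 28 could be tested. In limma 16 of the 28 were called lower and 0 higher, beside 39.6% of all tested genes called lower. Of the 16, 6 (Naip5, Nlrc5, Ifi204, Gbp3, Gbp5 and Il18bp) reached the minimum only through the controls, with Nar means of 0.035 to 0.26 FPKM, so the counts of calls here and by role are descriptions and lend no support. The median log2 fold change of the 48 was -1.20, against -1.07 for all tested genes, and -0.25 after scaling against 0. Over the 28 tested alone it was -1.24 on the deposited scale. Both Nar libraries lay below both controls for 35 of them, and in 13 the groups overlapped, beside 52.7% of all genes with a value above 0 and 78.3% of the tested genes with that pattern. After median-of-ratios scaling 3 of the 28 were called, and without Ctrl 1 or without Ctrl 3, 0 were.

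Sensors and adaptors outside the 9 genes accounted for 5 of these calls among 7 tested. Zbp1, a sensor of Z-form nucleic acids, fell by 2.53 on the log2 scale (limma adjusted p = 0.00654). Pstpip1, which binds the pyrin protein, fell by 2.44 (limma adjusted p = 0.00849), Ifi204, a DNA sensor of the Aim2 family, fell by 2.33 (limma adjusted p = 0.00875), and Nlrc5, a regulator of MHC class I genes, fell by 2.17 (limma adjusted p = 0.0104). Naip5, a flagellin receptor that works with Nlrc4, fell by 2.08 (limma adjusted p = 0.0234), although reads of the similar Naip genes may be split between them. After scaling 0 of these 5 were called. Nlrp6 was not called, with 0.41 and 1.16 FPKM in controls and 0.84 and 0.34 with Nar. Nlrx1, a mitochondrial NLR, was not called either, with 3.67 and 12.37 FPKM in controls and 4.09 and 2.27 with Nar.

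Of the 13 activators and regulators tested, 8 were called lower. Cd14, the lipopolysaccharide co-receptor of Tlr4, had 14.71 and 11.9 FPKM in controls against 0.44 and 0.75 after Nar, with log2 fold change -4.30 (SE 0.429, limma adjusted p = 0.00238). Gbp2, an interferon-induced GTPase that exposes bacterial lipopolysaccharide to caspase-11, had 9.18 and 8.66 FPKM in controls against 0.85 and 0.49 after Nar, with log2 fold change -3.59 (SE 0.416, limma adjusted p = 0.00297). Both remained called after median-of-ratios scaling, with limma adjusted p-values of 0.0179 and 0.0266. The Gbp genes resemble one another, so their reads may be split as well. The other calls were Myd88 (log2 fold change -2.21, or -1.10 after scaling), Gbp5 (-1.98, or -1.10), Gbp3 (-1.67, or -0.71), Serpinb1a (-1.21, or -0.10), Rela (-1.14, or -0.03) and Dpp8 (-1.08, or 0.03, which turns its direction). On the deposited scale Serpinb1a, Rela and Dpp8 were close to the median of all tested genes, -1.07. Nek7, the kinase that bridges Nlrp3 subunits, was not called. It had 2.4 and 2.78 FPKM in controls and 2.45 and 1.65 with Nar, so the groups overlapped (limma adjusted p = 0.46). Txnip, Panx1, Brcc3 and Nfkb1 were not called, with log2 fold changes of -1.29, -1.02, -0.44 and -0.93.

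Casp8, Casp12 and the membrane genes did not pass the test. Casp8 and Casp12 had log2 fold changes of -1.25 and -1.19 (limma adjusted p = 0.0597 and 0.185). Casp12 was high in a single library, with 0.25 FPKM (Ctrl 1) and 2.05 (Ctrl 3) against 0.27 (Nar 1) and 0.29 (Nar 3). Ninj1, which ruptures the membrane of dying cells, and Chmp4b, a subunit of the ESCRT machinery that repairs gasdermin pores, had log2 fold changes of -1.10 and -0.76 (limma adjusted p = 0.112 and 0.235). Gsdme, another gasdermin, was under the minimum for testing with 0.98 and 0.35 FPKM in controls and 0.06 and 0.12 with Nar.

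Of the 3 cytokines and binders tested, all were called lower. Il1b, the main cytokine substrate of caspase-1, had 14.9 and 26.28 FPKM in controls against 1.12 and 0.83 after Nar (log2 fold change -4.22, SE 0.474, limma adjusted p = 0.00247) and was the third of the 3 pathway genes called after scaling, with Cd14 and Gbp2 (limma adjusted p = 0.0153 for Il1b). Il18, Il1a and Il1rn were under the minimum for testing. Il18 had 0.31 and 0.07 FPKM in controls and 0.1 and 0.2 with Nar, Il1a, the interleukin-1 alpha gene, had 0.12 and 0.09 against 0.12 and 0.02, and Il1rn, the interleukin-1 receptor antagonist, had 0.72 and 0.5 against 0.1 and 0.11, the only 1 of these 3 genes whose groups did not overlap. Il18bp, the secreted inhibitor of interleukin-18, had 1.37 and 1.49 FPKM in controls and 0.03 and 0.04 with Nar (log2 fold change -3.50, SE 0.468, limma adjusted p = 0.00427), and an adjusted p of 0.0614 after scaling. Hmgb1, a nuclear protein released by dying cells, was just under the threshold with a log2 fold change of -1.23, or -0.08 after scaling.

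**Figure D5:**
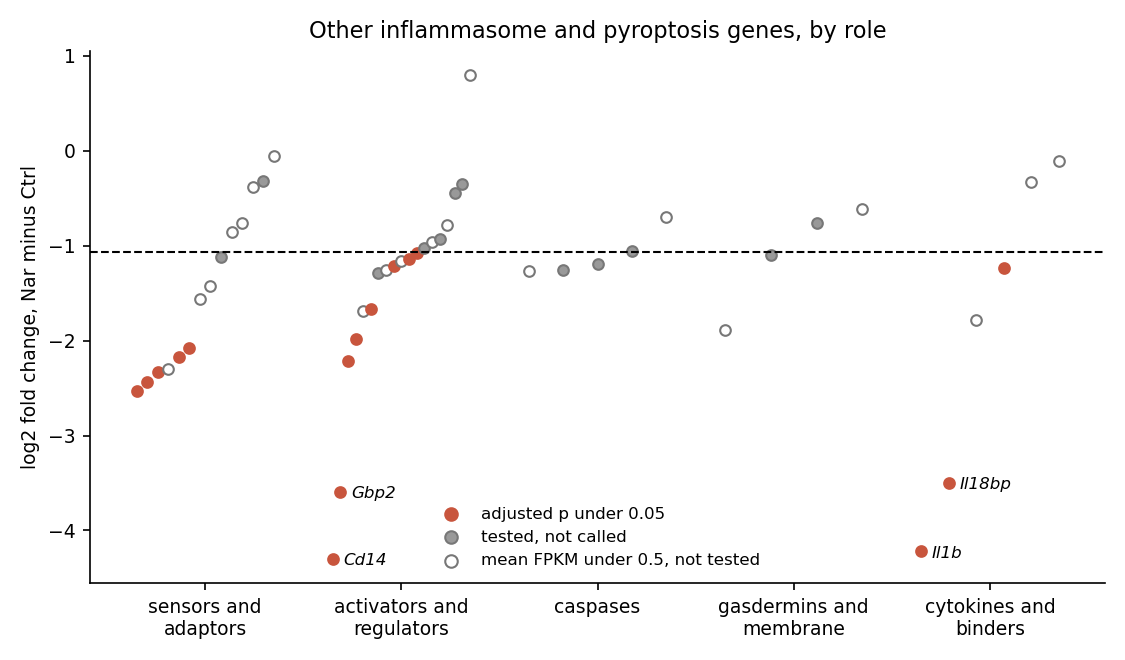
Log2 fold change (Nar minus Ctrl, on log2(FPKM + 0.1)) of the 48 further genes, grouped by role. Red points were called lower by limma at an adjusted p under 0.05, grey points were tested and not called, open points were not tested, and the dashed line is the median of all tested genes. Cd14, Il1b, Gbp2 and Il18bp lie lowest, from -4.30 to -3.50, and no caspase or membrane gene is red.

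Outside the pathway, the genes whose pattern over the 4 libraries was nearest to the mean pattern of the 5 tested members were Notch1, Tnfaip3, Mcl1, Lrch4 and H2-Q7 (which has near-identical relatives), at Euclidean distances of 0.0234 to 0.11 between centred log2(FPKM + 0.1) values. Notch1 had 1.05 and 0.84 FPKM in controls and 0.15 and 0.14 with Nar.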

How the data were processed

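Poly(A) RNA of mouse blood was sequenced in 4 libraries. Per the methods, clean reads were mapped with bowtie-2 against gene sequences, and the authors deposited values as FPKM with 2 decimals. The submitters' processing notes name TopHat2, Cufflinks and GRCm38, and which of these tools made the table is not given in the sources used here. Depth was estimated from steps among low values of single-transcript genes in the GENCODE annotation. Columns were matched to libraries by title, with 0 left over, and 5313 genes without a value were dropped. The study's DEGseq needs read numbers and was not used. log2(FPKM + 0.1) of 5339 genes (mean FPKM 0.5 or more) was fitted with limma 3.58.1 (R 4.3.3, eBayes with trend) and Benjamini-Hochberg adjustment over all of them. The fit was tested on simulated data. Exact permutation tests were two-sided. Alternatives changed the pseudocount, filter, scaling, variance model, replicate block and libraries. Marker lists held 90 genes, of which 87 had values. The members and lists were chosen with earlier results of these data known. The genes named were all members, pathway genes by list, and the 5 nearest genes by pattern. Pathway genes under the minimum are also named, outside that rule and after their values were seen. Plots used matplotlib 3.10.9 in Python 3.11.15. The values of 1 pathway gene are not reported here.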

Additional observations from a re-analysis of the deposited data

How the results depend on the processing

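All 9 genes stayed lower with Nar under the alternatives run. On the longest annotated transcripts, Nlrc4 and Nlrp1b rested on the fewest estimated fragments. Except where fewer genes or libraries entered, the cause was not tested.

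Limma called 5 member genes, 16 pathway genes and 2123 genes in all. The counts were 0, 3 and 42 with median-of-ratios scaling, 2 (Casp1 and Casp4), 7 and 256 with haemoglobin genes removed and values rescaled, and 3, 8 and 1125 where genes needed a mean FPKM of 1 or more, so that fewer were tested. Median-of-ratios scaling changed the share of all calls that were lower from 99.5% to 76.2%. Without a filter 0, 0 and 0 were called, with 4978 of 16382 genes at an unadjusted p-value under 0.05. Leaving out each library gave 0 to 1 members, 0 to 6 pathway genes and 0 to 259 genes in all, with 1444 to 2682 genes at an unadjusted p-value under 0.05. The members' median log2 fold change was -1.93, against -1.07 for all tested genes. It became -0.71 with a pseudocount of 1 (-0.62 for all tested genes) and -2.10 with 0.01 (-1.17). It was -1.75 with TPM (-1.08), -1.55 without haemoglobin genes (-0.61) and -0.87 with median-of-ratios scaling (0). Without single libraries it ran from -2.12 to -1.47, and all tested genes from -1.22 to -0.93. The 2 medians were then closest without Ctrl 1, at -1.47 against -1.19. The log2 ratio of the summed FPKM of -2.42 became -1.90 without haemoglobin genes and -1.25 with median-of-ratios scaling, and ran from -2.52 to -2.32 without single libraries.

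The deviations of same-numbered libraries from their group means had a weak negative correlation across genes (-0.153), and the labels do not say that a number marks a shared animal, batch or day, so the numbers were not taken as pairs. With the replicate block 5, 13 and 1815 genes were called. With the crossed replicate block, chosen after seeing the data, 5, 23 and 3233 were called.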
